A study of Sus scrofa with 36 samples.

Results

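The pathway by which adrenocorticotropic hormone (ACTH) drives the adrenal cortex was followed in the adrenal glands of 36 pigs through 10 of its genes: the ACTH receptor (MC2R), its accessory protein (MRAP), the stimulatory G protein subunit (GNAS), 3 subunits of protein kinase A (PRKAR1A, PRKACA and PRKACB), 2 transcription factors at its end (CREB1 and CREM) and 2 phosphodiesterases (PDE8A and PDE8B). Probes were taken by gene symbol in the array annotation, or else by RefSeq transcript. The array held 38 such probes among 60305, and 35 of them had log2 values among the 45348 probes that the authors deposited as a table. These 35 probes covered 9 of the 10 genes, because no probe carried the name PDE8B, which was not analysed here. GNAS had 17 probes in the table, PRKAR1A 6, CREB1 3, MC2R, PRKACA and PRKACB 2 each, and MRAP, CREM and PDE8A 1 each.

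The pigs were castrated males of 3 breeds: Creole, Large White and their F1 cross (Large White × Creole, called the cross below). They entered a climatic room at 11 weeks of age, in pens of 3 and in blocks of 4 littermates, and were adapted to it for 10 days at 24 °C. In each breed, 6 pigs were slaughtered at thermoneutrality (TN, 24 °C), and 6 after a heat stress (HS) of up to 5 days at 32 °C according to the design, where the sample labels give 30 °C. There were thus 6 pigs in each of 6 groups, with 1 single-dye array per pig on 5 slides that each held as many TN as HS arrays. TN pigs were killed ahead of the warming and HS pigs at its end, so that the temperature and the time of slaughter cannot be told apart, and littermates and pen mates were counted as separate pigs.

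ACTH from the pituitary binds MC2R, which reaches the cell surface only with MRAP. The receptor activates the G protein whose alpha subunit GNAS encodes, adenylyl cyclase then makes cyclic AMP (cAMP), and cAMP frees the catalytic subunits PRKACA and PRKACB of protein kinase A from the regulatory subunit PRKAR1A. The kinase phosphorylates CREB1, CREM encodes activators and repressors that bind the same DNA element, and the PDE8 enzymes degrade cAMP in steroid-making cells. In the adrenal cortex this chain leads to the uptake of cholesterol and the synthesis of cortisol. In the RefSeq annotation of the pig genome build Sscrofa11.1, MC2R lies at chr6:96241744-96268870, MRAP at chr13:195950949-195973501, GNAS at chr17:58985580-59053022 and PRKACB at chr6:129520397-129636207.

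The values are normalized log2 intensities, on which a difference of 1 is a doubling. A probe's level cannot be set against that of another probe, so that genes are compared only by their differences between pigs. All 35 probes were well above background on all 36 arrays, and 0 were saturated. Over the whole array, 42436 to 48060 probes per array were well above background, and any pair of arrays correlated at 0.982 to 0.996. The whole glands were collected and cut, and a weighed amount of the tissue was ground for RNA. The share of cortex and medulla in that tissue is not given. Markers of both cortex and medulla were present: 8 of 10 listed cortex genes and 7 of 11 listed chromaffin genes had a probe in the table. In such mixed tissue, fewer cells of a type and less RNA per cell cannot be told apart.

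The sequences of 5 probes are printed because they show what the measurements of the receptor complex, of PDE8A and of CREB1 rest on. They are as the deposited scanner files give them, in lower case, and those files do not state the strand.
MC2R probe 1: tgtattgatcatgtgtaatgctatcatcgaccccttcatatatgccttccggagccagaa
MC2R probe 2: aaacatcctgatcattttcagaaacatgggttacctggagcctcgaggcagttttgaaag
MRAP probe 1: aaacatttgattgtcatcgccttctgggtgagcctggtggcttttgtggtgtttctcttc
PDE8A probe 1: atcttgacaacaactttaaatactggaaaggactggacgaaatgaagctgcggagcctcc
CREB1 probe 2: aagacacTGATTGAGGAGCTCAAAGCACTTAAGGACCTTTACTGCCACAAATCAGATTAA
The MC2R probes shared no run longer than 7 bases, so that they read separate stretches of the transcript. The capitals in the CREB1 probe mark the run of 53 bases found in all 3 CREB1 probes, and CREB1 probe 1 shares 56 bases with probe 2 and 57 with probe 3. The 3 CREB1 probes therefore read almost the same stretch. Among the GNAS probes, several overlapped in the same way (41 bases between probes 5 and 7, and 57 between probes 13 and 14), so that the 17 probes are not 17 separate readings of the gene.

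**Figure D1:**
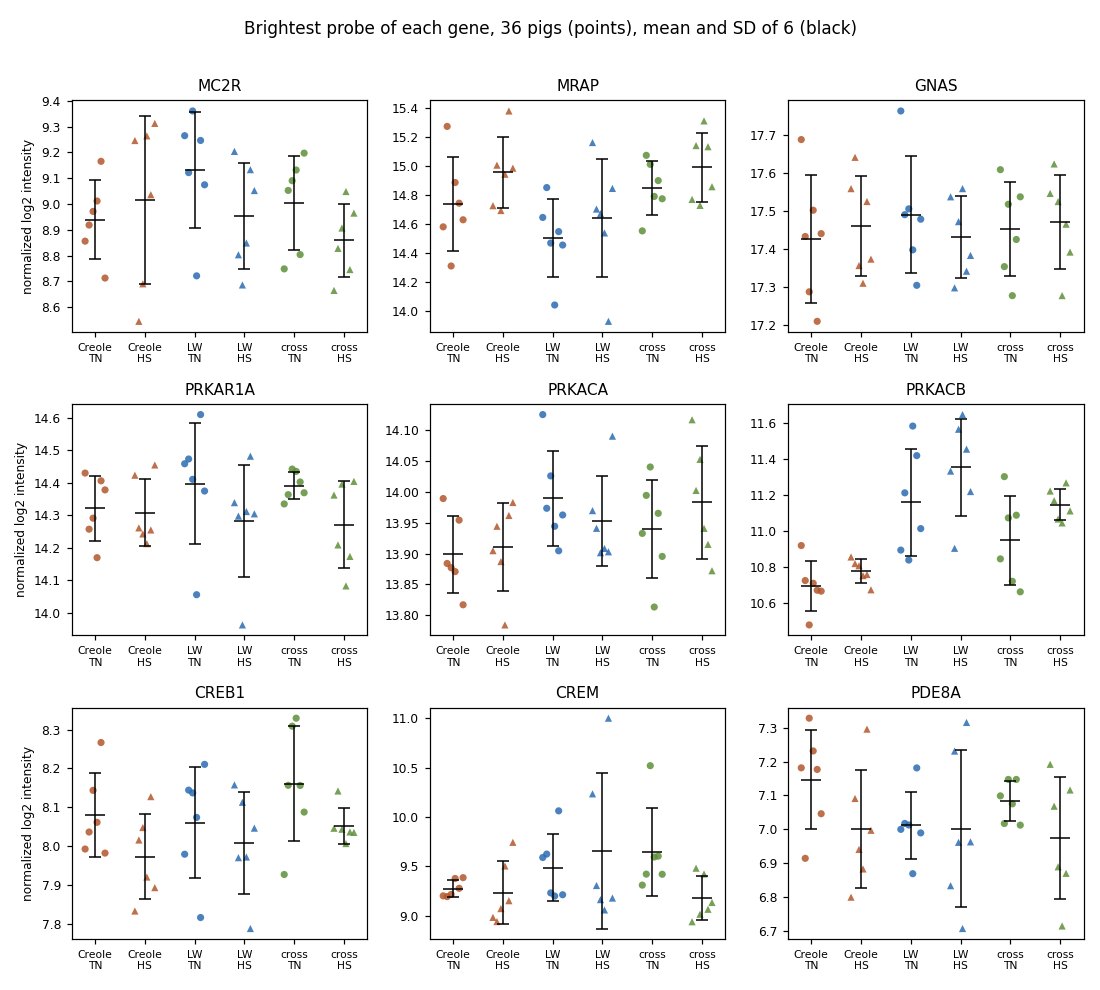
Normalized log2 intensity of the brightest probe of each of 9 genes in each pig (circles TN, triangles HS), by breed and temperature, with the mean and SD of 6 pigs in black and a separate y axis for each gene. PRKACB is lowest in the Creole pigs, whose group means are 10.70 and 10.78, against 11.16 and 11.35 in the Large White pigs, and CREM has single pigs far above their group.

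The question of the design was whether HS altered the adrenal glands. Of the 35 probes of the ACTH pathway, 0 differed between HS and TN pigs at a false discovery rate (FDR) of 0.05 (limma with Benjamini-Hochberg adjustment over 45348 probes, 18 HS and 18 TN pigs). Over all probes tested, 413 passed, or 0.911%, of which 186 were higher and 227 lower in HS. At an unadjusted p under 0.05 there were 4 of the 35 probes (11.4%), against 13.5% of all probes: PRKACB probe 1, CREB1 probes 1 and 3, and GNAS probe 17. The median difference over the 35 probes was -0.0045 on the log2 scale, with 15 probes higher and 20 lower in HS. Over the brightest probe of each of the 9 genes, the 95% confidence intervals of the HS minus TN difference lay within -0.40 to 0.35.

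MC2R, the receptor itself, had a brightest-probe value of 8.71 to 9.36 in the TN pigs (median 9.06) and of 8.55 to 9.31 in the HS pigs (median 8.94). The ranges overlapped almost fully, and 8 of 18 HS pigs lay above the TN mean. The difference was -0.08 ± 0.071 (SE, 95% confidence interval -0.22 to 0.06), with an adjusted p of 0.676 by limma. The other MC2R probe gave -0.07, and after removal of the group means both probes correlated at 0.91 over the 36 pigs, so that most of the spread between pigs was shared by separate stretches of the transcript. By group, the mean of MC2R probe 1 was highest in Large White TN pigs (9.13 ± 0.23, SD, n = 6) and lowest in the cross under HS (8.86 ± 0.14), which is a distance of 0.27 against a mean SD within groups of 0.21.

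MRAP, which carries the receptor to the membrane, was the member with the largest positive difference. Its values ran from 14.04 to 15.28 in TN pigs (median 14.69) and from 13.93 to 15.38 in HS pigs (median 14.85). HS pigs lay above the TN mean in 14 of 18 cases, although the ranges overlapped. The difference of 0.17 ± 0.091 (95% confidence interval -0.02 to 0.35) had an adjusted p of 0.431 by limma. Within breeds it was 0.22 (Creole), 0.14 (Large White) and 0.14 (the cross), and 0 of these passed the FDR.

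For GNAS, the brightest probe had a median of 17.46 in TN pigs (17.21 to 17.76) and of 17.47 in HS pigs (17.28 to 17.64), and its difference was -0.0020 ± 0.045 (95% confidence interval -0.09 to 0.09). Over the 17 GNAS probes the differences ran from -0.03 to 0.09, with 10 higher and 7 lower. GNAS probe 17 had 0.08 (adjusted p = 0.307 by limma), and 15 of 18 HS pigs lay above its TN mean.

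Among the kinase subunits, PRKAR1A, which holds the catalytic subunits inactive, was lower in HS at all 6 probes, by 0.07 to 0.22, of which 0 passed the FDR (lowest adjusted p 0.373 by limma). Its brightest probe differed by -0.08 ± 0.045 (95% confidence interval -0.17 to 0.01). The 4 brightest PRKAR1A probes moved together, at correlations of 0.64 to 0.91 with the brightest, whereas probe 6 had -0.24. PRKACA, the main catalytic subunit of most tissues, differed by 0.0060 ± 0.029 (95% confidence interval -0.05 to 0.07), the narrowest interval among the 9 brightest probes. PRKACB, a catalytic subunit encoded by a separate gene, had 0.16 ± 0.066 at probe 1 (95% confidence interval 0.02 to 0.29, unadjusted p = 0.0218, adjusted p = 0.256 by limma) and 0.01 at probe 2. The probes of PRKACB thus did not give the same size.

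CREB1, the transcription factor that the kinase phosphorylates, was lower in HS at its 3 probes, by 0.09, 0.07 and 0.11. Probe 3 had the lowest adjusted p of the 35 probes (0.142 by limma, unadjusted p = 0.0055). Its values were 7.46 to 7.87 in TN pigs (median 7.67) and 7.33 to 7.83 in HS pigs (median 7.57), and 3 of 18 HS pigs lay above the TN mean. Although the CREB1 probes read nearly the same stretch, probes 2 and 3 correlated with probe 1 at only 0.20 and 0.08 after removal of the group means, so that little of their spread between pigs was shared.

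CREM, which the cAMP response itself induces in many endocrine tissues, had a median of 9.38 in TN pigs and 9.16 in HS pigs. The lowest and highest were 9.19 and 10.52 in TN pigs, and 8.94 and 10.999 in HS pigs. The difference of -0.11 ± 0.14 had the widest interval of the 9 genes (95% confidence interval -0.40 to 0.17, adjusted p = 0.794 by limma). Single pigs set that spread: both highest values under HS were in Large White pigs (10.999 and 10.23), and the highest under TN was in a pig of the cross (10.52). Leaving out single pigs moved the CREM difference from -0.21 (without Large White HS replicate 5) to -0.05 (without TN replicate 3 of the cross). In the Creole TN group, by contrast, the 6 values lay between 9.19 and 9.39.

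PDE8A, which degrades cAMP, had a median of 7.06 in TN pigs (6.87 to 7.33) and of 6.96 in HS pigs (6.71 to 7.32). The difference was -0.09 ± 0.053 (95% confidence interval -0.19 to 0.02), with an adjusted p of 0.490 by limma, and 6 of 18 HS pigs lay above the TN mean.

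**Figure D2:**
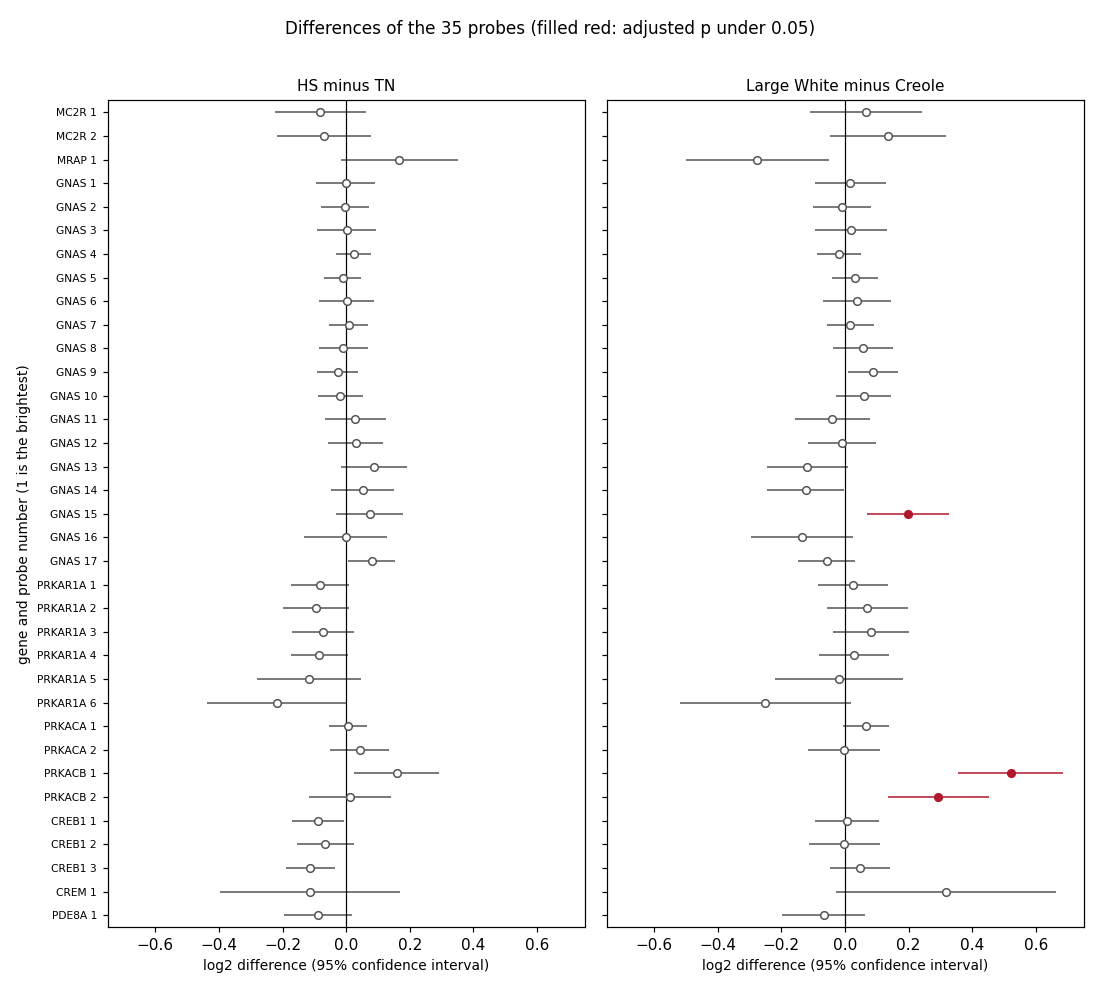
Log2 difference (point) and 95% confidence interval (line) of each of the 35 probes, for HS minus TN pigs on the left and Large White minus Creole pigs on the right, with filled red points past an FDR of 0.05. No point is filled for HS minus TN, and 3 are filled for Large White minus Creole: PRKACB probes 1 and 2, at 0.52 and 0.29, and GNAS probe 15, at 0.20.

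Whether the breeds responded differently was tested by the interaction between breed and temperature. It gave 0 of the 35 probes (limma F test), as it did for all 45348 probes (0%). At an unadjusted p under 0.05 there was 1 member probe, against 4.22% of all probes. It was PRKAR1A probe 6, the dimmest PRKAR1A probe, whose correlation with the brightest was negative. Within the breeds, HS minus TN gave 0 of the 35 probes in the Creole pigs (0% of all probes), 0 in the Large White animals (0.011%) and 0 in the cross (0%), with 1, 0 and 1 probes at an unadjusted p under 0.05, against 4.79%, 6.29% and 12.3% of all probes. The probe in the cross was PRKAR1A probe 6, with a difference of -0.58 ± 0.17 and an adjusted p of 0.155 by limma. MC2R had 0.08 within the Creole pigs, -0.18 within the Large White pigs and -0.14 within the cross at probe 1. This order was not past the interaction test (unadjusted p = 0.288).

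The breeds themselves differed in 1 of the 9 genes at its brightest probe. Large White minus Creole gave 3 of the 35 probes past the FDR, or 2 genes, against 11.5% of all probes (5207 of 45348), so that the share among the members lay near that of the array. The 3 probes were both PRKACB probes and GNAS probe 15, all higher in the Large White pigs. The F test over the 3 breeds gave the same 3 probes, against 10.6% of all probes, and 1 with the cortex average as a covariate, without slide 4 or without slide 5.

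PRKACB was the clearest case. At probe 1 the Creole pigs ran from 10.48 to 10.92 (median 10.74), the cross from 10.66 to 11.30 (median 11.08) and the Large White pigs from 10.84 to 11.65 (median 11.28). Of the 12 Large White pigs, 9 lay above the highest Creole pig and all 12 above the Creole mean. The difference of 0.52 ± 0.081 (95% confidence interval 0.36 to 0.69) corresponded to 1.43-fold, with an adjusted p of 3.31e-05 by limma.

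PRKACB probe 2, which shares no run longer than 6 bases with probe 1, ran from 9.69 to 9.99 in the Creole pigs (median 9.88), from 9.42 to 10.28 in the cross (median 9.88) and from 9.94 to 10.40 in the Large White pigs (median 10.11). Again 9 of 12 Large White pigs exceeded every Creole pig. The difference was 0.29 ± 0.078 (1.23-fold, adjusted p = 0.0109 by limma). The cross differed from the mean of its parents by 0.05 at probe 1 and -0.09 at probe 2, with 95% confidence intervals of -0.09 to 0.19 and -0.23 to 0.04.

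Within each temperature, the breed difference of PRKACB at probe 1 was 0.47 ± 0.12 among the TN pigs (adjusted p = 0.0185 by limma) and 0.58 ± 0.12 among the HS pigs (adjusted p = 0.00472). These were the only member calls within a temperature, 1 of 35 probes in each, against 3.55% of all probes at TN and 2.86% at HS. The count of 2 became 0 with the adipocyte or cortex average as a covariate or without slide 4, and 1 with the chromaffin average, without slide 3 or 5, or without Creole TN replicate 3, Large White TN replicate 4 or Large White TN replicate 5. Within the 5 slides, the Large White mean of probe 1 exceeded the Creole mean by 0.20 to 0.80, from 1 to 3 pigs of each breed a slide, and that of probe 2 by 0.10 to 0.46.

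Markers of other cells also moved with the breeds, and their part in the PRKACB difference was not tested beyond fits that held them as covariates. The 7 chromaffin genes averaged 13.65 ± 0.20 (SD, n = 12) in the Creole pigs (13.36 to 14.10) and 14.07 ± 0.29 in the Large White pigs (13.31 to 14.45). Of the 7, 4 were called higher in the Large White pigs, where 11.5% of all probes were called in either direction. Of 6 adipocyte genes, 4 were called lower and 1 higher in the Large White pigs. Their average was 9.54 ± 0.34 in the Creole pigs (8.83 to 10.06) and 8.96 ± 0.18 in the Large White pigs (8.69 to 9.26). Of 8 cortex genes, 3 were called lower, and their average was 16.85 ± 0.07 in the Creole and 16.67 ± 0.09 in the Large White pigs. Of 6 endothelial genes, KDR was called higher (0.68 at its brightest probe, with -0.13 and -0.10 at its other probes), and of 6 capsule and stroma genes, PDGFRA was called lower (-0.32). The capsule and stroma genes were on average 12.74 ± 0.26 (SD, n = 12) in the Creole and 12.48 ± 0.21 in the Large White pigs, and the 5 immune genes, of which 0 were called, 9.24 ± 0.18 and 9.42 ± 0.22. The endothelial, stroma and immune averages were not used as covariates, and their part was not tested. With the chromaffin, adipocyte or cortex average as a covariate, PRKACB probe 1 kept differences of 0.51, 0.48 and 0.44 (adjusted p from 0.00387 to 0.0124 by limma). PRKACB probe 2 fell short of the FDR with each, at 0.21, 0.22 and 0.07 (adjusted p from 0.225 to 0.731), and also without slide 3 (0.24, adjusted p = 0.121) and without slide 4 (0.24, adjusted p = 0.0682).

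**Figure D3:**
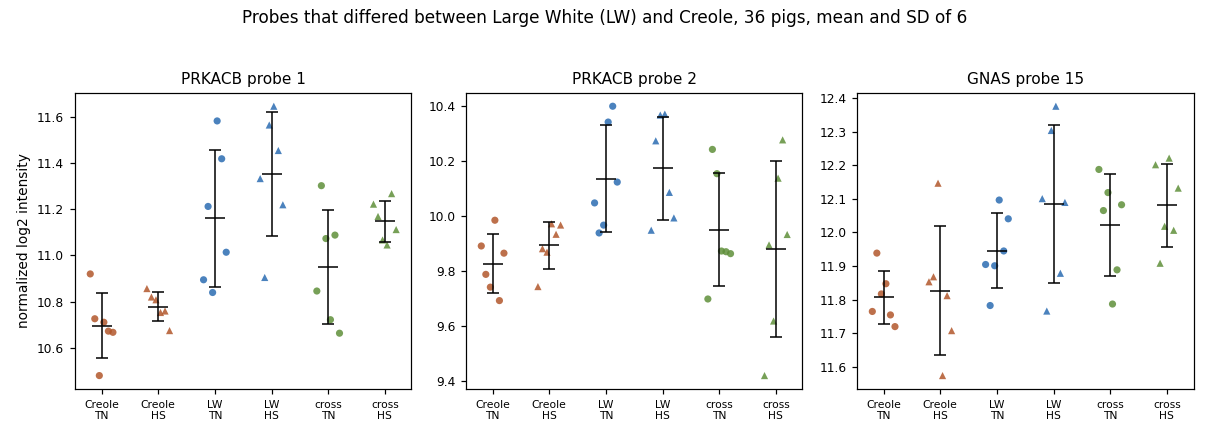
Normalized log2 intensity of PRKACB probe 1, PRKACB probe 2 and GNAS probe 15 in each pig (circles TN, triangles HS), with the mean and SD of 6 pigs in black and a separate y axis for each probe. For PRKACB, 9 of 12 Large White pigs lie above the highest Creole pig at either probe, whereas for GNAS probe 15 only 2 do.

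GNAS probe 15 was 11.57 to 12.15 in the Creole pigs (median 11.81), 11.79 to 12.22 in the cross (median 12.07) and 11.77 to 12.38 in the Large White pigs (median 11.99). Its difference of 0.20 ± 0.064 had an adjusted p of 0.0363 by limma. The other 16 GNAS probes did not pass, and their directions were mixed: over the 17 probes, GNAS probe 15 included, 9 had positive and 8 negative differences. GNAS probes 13 and 14, which overlap, had differences of about -0.12, and the brightest probe had 0.02 (95% confidence interval -0.10 to 0.13). GNAS probe 15 correlated with that brightest probe at 0.21. Its call was lost in 16 of 54 alternatives, among them the fits with the chromaffin, adipocyte or cortex average as a covariate (0.12, 0.17 and 0.19), those without slide 2, slide 4 or slide 5, and those without 1 of 10 pigs.

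MRAP went the other way between the breeds. It was 14.31 to 15.38 in the Creole pigs (median 14.82), 14.55 to 15.31 in the cross (median 14.88) and 13.93 to 15.16 in the Large White pigs (median 14.60). The Large White pigs were lower by a difference of -0.28 ± 0.11 (adjusted p = 0.106 by limma), which did not pass, and 2 of the 12 lay above the Creole mean. Of 54 alternatives, 3 took the MRAP difference past the FDR. It was -0.55 with the chromaffin and -0.47 with the adipocyte average as a covariate (adjusted p = 0.00814 and 0.0476 by limma). Without Large White HS replicate 1 it was -0.32 (adjusted p = 0.049). Among the alternatives short of the FDR, the cortex average as a covariate gave -0.27 (adjusted p = 0.353 by limma). Leaving out slide 4 or slide 5 gave -0.19 and -0.25 (adjusted p = 0.419 and 0.274). The MRAP difference was 0.02 within slide 1 and -0.14 to -0.51 within the others.

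MC2R, GNAS at its brightest probe, PRKAR1A, PRKACA, CREB1, CREM and PDE8A did not differ between Large White and Creole pigs past the FDR. CREM had the largest difference among them, 0.32 with a 95% confidence interval of -0.03 to 0.66, and the difference of the other 6 lay between -0.07 and 0.07. Without Large White HS replicate 5 the CREM difference was 0.18. With the cortex average as a covariate the PRKACA difference was 0.15 (adjusted p = 0.0401 by limma), past the FDR, against 0.07 without it. The cross minus the mean of its parents gave 0 of the 35 probes, against 0.415% of all probes, and 0 within TN (0.0265%) or within HS (0.0463%), with MRAP (0.21 ± 0.096, adjusted p = 0.394 by limma) and GNAS probe 15 (0.14) at an unadjusted p under 0.05, against 11.2% of all probes.

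Genes that act as partners were compared over the pigs after removal of the group means. MC2R and MRAP had a Pearson r of 0.21 (permutation p = 0.241, adjusted p = 0.795) and a Spearman rho of 0.19 (permutation p = 0.304, adjusted p = 0.819). GNAS and PRKAR1A had 0.03 (p = 0.888) and 0.04 (p = 0.819), PRKACA and PRKACB -0.05 (p = 0.771) and -0.06 (p = 0.731), and CREB1 and CREM -0.18 (p = 0.397) and -0.09 (p = 0.612), all by permutation within groups. Without the 2 pigs farthest from the median of the gene named before the other, r was 0.15, -0.07, 0.08 and -0.17. With the slide means also removed, r was 0.25, -0.35, 0.06 and -0.17. Of the 4 pairs tested, 0 passed after Benjamini-Hochberg adjustment. The PDE8A and PDE8B pair had no value.

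The named genes whose probes followed MC2R probe 1 most closely over the 36 pigs, again after removal of the group means, were YTHDF3 (r = 0.85), NECTIN2 (0.78), SYS1 (0.76), MRAP2 (0.70) and BLCAP (0.70). These are descriptive values, picked as the highest of all named genes.

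The wider pathway was read from 10 lists of 97 genes, of which 68 had a probe. Each gene was read at its brightest probe, whereas the shares of the array are over all probes, so that these shares are not strictly alike. Between HS and TN pigs, 1 of the 68 passed the FDR (1.47%, against 0.911% of all probes), and 7 of the 68 had an unadjusted p under 0.05, against 13.5% of all probes. The gene past the FDR was DUSP1, a phosphatase gene that ACTH induces. Among the 16 measured genes that ACTH or cAMP is known to induce, 13 were lower and 3 higher in HS, with a median difference of -0.04, against a median of -5.0e-06 over all probes. DUSP1 averaged 13.53 ± 0.42 in TN and 13.01 ± 0.37 in HS pigs (SD, n = 18), and fell by 0.52 on the log2 scale (1.43-fold, adjusted p = 0.0417 by limma), and its other probe fell by 0.56. This call was lost in 29 of 54 alternatives, over which the difference ran from -0.64 to -0.39. Those 29 included 21 of the 36 that left out a single pig (-0.58 to -0.45 over the 36) and those without slides 1, 2, 3 or 4 (-0.45, -0.47, -0.51 and -0.53). With the chromaffin average as a covariate it was -0.39 (adjusted p = 0.158). The 7 chromaffin genes all had negative HS minus TN differences, with a median of -0.21, and 0 of them passed. The 3 red blood cell genes measured were also negative (HBB -0.67, SLC4A1 -0.05 and ALAS2 -0.02), again with 0 past the FDR, and averaged 9.41 ± 0.28 in TN and 9.16 ± 0.30 in HS pigs. Their part in the DUSP1 difference was not tested. STAR, which moves cholesterol into mitochondria, had -0.15 (adjusted p = 0.257), short of the FDR.

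Among the cortex markers, NR5A1, a transcription factor of steroid-making cells, fell by 0.25 in HS at its brightest probe (adjusted p = 0.0253 by limma), and its other 3 probes had -0.24, -0.23 and -0.15, short of the FDR. Its call was lost when any 1 of the 5 slides was left out, with differences of -0.20 to -0.27, and in none of the 36 fits that left out a single pig. The cortex average, which includes NR5A1, was 16.79 ± 0.09 in TN and 16.72 ± 0.13 in HS pigs. With it as a covariate the NR5A1 difference was -0.19 (adjusted p = 0.121 by limma), which is no check on a gene that is part of the average.

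Between the breeds, 7 of the 68 genes passed the F test (10.3%, against 10.6% of all probes) and 13 passed for Large White minus Creole (19.1%, against 11.5%), 8 higher and 5 lower. The share over the brightest probes of all named genes was not computed. MRAP2, a paralog of MRAP that binds melanocortin receptors, had the largest difference. It averaged 10.16 ± 1.59 in the Creole, 11.39 ± 0.59 in the cross and 11.99 ± 0.33 in the Large White pigs (SD, n = 12). The Large White minus Creole difference was 1.83 ± 0.39 (3.56-fold, adjusted p = 0.00162 by limma), and the other MRAP2 probe gave 1.38. The Creole pigs fell into separate ranges: 4 of the 12 had values of 7.76 to 8.19 and the other 8 had 10.73 to 11.50, with nothing in the 2.53 between, and all 12 lay below the lowest Large White pig at this probe. The 4 were 2 TN pigs (replicates 1 and 6) and 2 HS pigs (replicates 2 and 3), and MRAP2 probe 2 set the same 4 pigs apart, at 6.32 to 6.74 against 8.21 or more in the other 32 pigs. The mean difference between the breeds thus averages over both Creole ranges. Pigs came in blocks of 4 littermates, but litters are not in the labels, and whether these 4 pigs shared a litter was not tested. MRAP2 probe 1 was 10.67 to 12.40 in the cross and 11.62 to 12.83 in the Large White pigs. After removal of the group means, both MRAP2 probes correlated at 0.99 over the 36 pigs, and at 0.97 over the 24 pigs of the Large White and the cross. The correlation of MRAP2 probe 2 with MC2R was 0.49 over those 24 pigs.

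**Figure D4:**
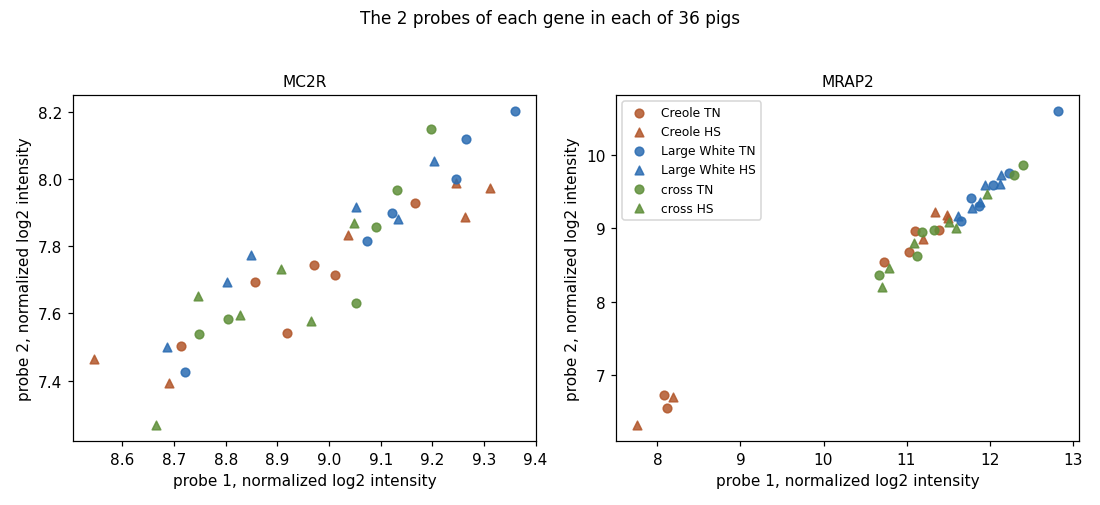
Normalized log2 intensity of probe 2 against probe 1 for MC2R on the left and MRAP2 on the right, with a point for each of 36 pigs (circles TN, triangles HS, coloured by breed) and axes that do not start at 0. The MC2R points form 1 cloud in which the breeds mix, and for MRAP2 4 Creole pigs lie apart from the other 32 pigs.

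RGS4, which limits G protein signalling, was higher in the Large White pigs (10.66 ± 0.37, SD, n = 12) than in the Creole pigs (9.95 ± 0.31), by 0.72 (adjusted p = 0.00254 by limma). With the chromaffin average as a covariate that difference was 0.21 (adjusted p = 0.494), and with the adipocyte average 0.63 (adjusted p = 0.0925). RGS2, of the same family, passed the F test at its brightest probe (adjusted p = 0.0308 by limma), with means of 13.99 in the Large White, 13.67 in the Creole and 13.56 in the cross pigs. Its Large White minus Creole difference was 0.31 there (adjusted p = 0.0808) and 0.36, 0.39 and 0.74 at its other 3 probes, of which the last 2 passed. RAPGEF3, a cAMP target outside protein kinase A, was lower in the Large White pigs by a difference of -0.24, and BVES, a membrane protein that binds cAMP, was higher by 0.28. Of the 16 measured genes that ACTH or cAMP is known to induce, 9 had positive and 7 negative Large White minus Creole differences, with a median of 0.016. The 2 past the FDR, against 11.5% of all probes, were HSD3B1 and STAR, both needed for steroid synthesis. They were lower in the Large White pigs, by differences of -0.78 and -0.34 (adjusted p = 5.78e-06 and 0.00296 by limma). Both genes are among the cortex markers, so that the fit with the cortex average is not a check on them. Over the 54 alternatives the HSD3B1 difference ran from -0.82 to -0.44, and from -0.82 to -0.73 when single pigs were left out. The STAR difference was -0.11 with the cortex average (adjusted p = 0.519 by limma). It also missed the FDR with the chromaffin (-0.32) or adipocyte average (-0.33) as a covariate and without slide 3 (-0.26). The BVES difference did so without slides 3, 4 or 5 (0.21 to 0.28) and with the 3 covariates (0.23 to 0.29), and the RAPGEF3 difference without slide 4 (-0.18) and with the cortex average (-0.15).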

How the data were processed

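Adrenal RNA of 36 pigs was hybridised to single-dye (Cy3) Agilent arrays, 1 per pig. The authors read the scans with Agilent Feature Extraction 10.10.1.1, took the median pixel intensity of each spot, quantile normalized it and deposited the log2 values of 45348 probes, which were used as deposited. The scanner intensities, also deposited by the authors, were used for background, saturation and reprocessing only.

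Differences were fitted with limma 3.58.1 in R 4.3.3 (breed and temperature as terms, a separate fit of the 6 groups for the interaction and for differences within a breed or temperature), with Benjamini-Hochberg adjustment over all 45348 probes at an FDR of 0.05. Role pairs were tested with 100000 permutations within groups. The fits were tested on simulated data. Of 60305 probes, 21740 were named by symbol and 3018 by RefSeq transcript, and 35547 stayed unnamed. The brightest probe stands for a gene where 1 value is given. The members, gene lists and tests were chosen with earlier results of these data known. All 10 genes were named, with list genes past the FDR for HS minus TN or the breed F test (at most 4 per list) and the 5 genes most like MC2R. Replicate numbers were given in the order of deposit and only name a pig. Pen, litter and slaughter day are not in the labels, so p-values measure the spread between pigs that may share them. The number of arrays limits the precision.

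Alternatives were scanner median intensity, the 75th percentile, normexp with an offset of 50, median centring, filters on dim probes, slide as a block, variance prior, array weights, the mean of all probes of a gene, the chromaffin average as a covariate, and leaving out each slide or pig. The adipocyte and cortex averages as covariates, the list genes under these settings and the differences within slides were added after seeing the data.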

Additional observations from a re-analysis of the deposited data

Results flagged for a closer look

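Over the brightest probe of each of the 9 genes and the other probes that differed between breeds, 66 combinations of 11 probes and a group of 6 pigs were examined for a pig far from the others. A gap to the nearest pig beyond Dixon's 95% limit for 6 values was found in 4 of them, where chance gives about 1 in 20, or 3.3. For PRKAR1A probe 1, Large White HS replicate 3 (slide 3) had the lowest value of its group, 13.96, with the nearest pig at 14.30. For PRKACA probe 1, Large White HS replicate 6 (slide 5) had the highest, 14.09, with the nearest at 13.97. For CREB1 probe 1, HS replicate 2 of the cross (slide 2) had the highest, 8.14, with the nearest at 8.05. For CREM, TN replicate 3 of the cross (slide 4) had the highest, 10.52, with the nearest at 9.60. The 4 values came from 4 different pigs.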

How the results depend on the processing

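Under all the alternatives run, 0 member probes passed the FDR for HS minus TN overall or within a breed, for the cross minus its parents and for the interaction. For Large White minus Creole, the 3 calls became 1 without slide 4 (where the calls over all probes went from 5207 to 3791), 2 without slide 2, 3 or 5, and 2 to 3 when single pigs were left out. They were also 2 with each marker average as a covariate: PRKACB probe 1 with MRAP for the chromaffin and adipocyte averages, and PRKACB probe 1 with PRKACA probe 1 for the cortex average. For the breed F test, the 3 calls became 1 with the cortex average as a covariate, without slide 4 or without slide 5, and 3 to 4 without single pigs. Over all probes the F test calls went from 4821 to 2454, 3776 and 3792 in the former 3 fits. Within a temperature, the 2 calls (PRKACB probe 1 at each) became 1 with the chromaffin average, without slide 3 or without slide 5, 0 with the adipocyte or cortex average or without slide 4, and 1 to 3 without single pigs. Over all probes, the 1609 TN and 1295 HS calls became, summed over both, 1467 with the chromaffin, 996 with the adipocyte and 1365 with the cortex average, and 1087, 1870 and 2051 without slides 3, 4 and 5. PRKACB probe 1 was called in 54 of 54 alternatives (0.44 to 0.59).

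Small differences that were not called changed sign. For HS minus TN, PRKACA became -0.0265 with the 75th percentile and -0.0170 without slide 5, and ran from -0.00347 to 0.0158 without single pigs. GNAS became 0.0124 with the chromaffin, 0.000170 with the adipocyte and 0.0254 with the cortex average, 0.0183 as the mean of all probes, and 0.00925, 0.00876 and 0.0107 without slides 1, 3 and 5, and ran from -0.0166 to 0.0168 without single pigs. For Large White minus Creole, GNAS became -0.0130 with the chromaffin average and -0.00693 and -0.00152 without slides 1 and 4 (-0.0111 to 0.0398 without single pigs). PRKAR1A became -0.00750 with the 75th percentile, -0.0109 as the mean of all probes and -0.0222 without slide 4. CREB1 became -0.0114 with normexp, -0.00942 with the chromaffin average, and -0.00405, -0.0264 and -0.0147 without slides 1, 2 and 5 (-0.00846 to 0.0319 without single pigs). PDE8A became 0.0523, 0.0146 and 0.0105 with the chromaffin, adipocyte and cortex averages, and MC2R -0.0550 without slide 2.

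Among the role pairs, GNAS and PRKAR1A had r = -0.349 with slide means removed, -0.0743 without the 2 farthest pigs and -0.361 as the mean of all probes. PRKACA and PRKACB had 0.0571 with slide means removed and 0.0807 without the 2 farthest pigs. CREB1 and CREM had 0.118 as the mean of all probes. The cause of these changes was not tested. No paired analysis was possible because the labels do not give the litter or pen by which pigs could be matched. The replicate numbers printed here were given in the order of deposit and only name a pig. The PDE8B alternatives were not run, since it had no probe.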
